A study of Sus scrofa with 12 samples.

Results

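The genes described are markers of the endothelium, the single layer of cells that lines blood vessels. They were chosen by name, as 10 symbols (PECAM1, CDH5, KDR, FLT1, TEK, TIE1, VWF, ENG, ESAM and EMCN), and found in the count table through their pig Ensembl gene names. The table held 9 of the 10, among 25880 genes listed and 20341 genes with at least 1 count. VWF, the von Willebrand factor of endothelial cells and platelets, had no identifier in the gene name table and was not analysed here.

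The RNA came from the Semimembranosus, a ham muscle, of 12 Italian Large White pigs, a heavy pig breed, 6 with high and 6 with low intramuscular fat (IMF). No experimental treatment is given, the males are barrows (castrated) by the study's methods, and all pigs shared 1 environment and diet and a live weight of 150 to 160 kg. By the same methods the pigs were slaughtered on different days and the libraries were sequenced in pairs per lane. The labels do not give the day or lane of a pig, so their part was not tested. The high IMF pigs (numbers 1 to 6) were 234 to 244 days old and the low IMF pigs (numbers 7 to 12) 229 to 249 days old, with 3 pigs labelled female and 3 labelled male in each group. Each library was 1 pig and held 131048805 to 154840282 counts in the high and 133915596 to 178013997 in the low IMF group, so counting error was small beside the spread between pigs. These totals exceed the number of reads that the study lists as left after filtering, so a count may not stand for a single fragment. Reads of the Y-linked genes EIF1AY and KDM5D went against the labelled sex in 6 of the 12 pigs. These were pigs 3 and 5 of the high and pigs 7, 8, 9 and 10 of the low IMF group. Results are therefore also given for the 6 pigs whose Y counts fit their label (4 high, 2 low). Whether samples or labels were exchanged, also between the IMF groups, was not tested. A fitting sex label does not settle the group label of a pig. The muscle identity itself was plain in the counts: the summed level of 6 muscle fibre genes, led by ACTA1 and CKM, ran from 32366 to 62558 CPM (counts scaled to the TMM-normalised total of the library). The whole muscle was sequenced, and in such bulk RNA fewer endothelial cells and less RNA per endothelial cell cannot be told apart.

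Endothelial cells hold together through adhesion proteins at their borders, and they sense growth factors through receptor tyrosine kinases on their surface. Vascular endothelial growth factor (VEGF) acts through KDR and is bound by FLT1, while angiopoietins act through TEK with TIE1 as its partner. In skeletal muscle the capillary bed runs between the fibres, and its endothelium carries oxygen, glucose and fatty acids to them.

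Among the proteins of the cell borders, PECAM1 (CD31) joins endothelial cells to each other, CDH5 (VE-cadherin) builds their adherens junctions and ESAM lies at their tight junctions. KDR (VEGF receptor 2), FLT1 (VEGF receptor 1), TEK (the angiopoietin receptor TIE2) and TIE1 are kinases, ENG (endoglin) is a co-receptor for TGF-beta and bone morphogenetic protein (BMP) ligands, and EMCN (endomucin) is a mucin of the endothelial surface. On Sscrofa11.1 the RefSeq genes lie as follows: PECAM1 at chr12:14667643-14723296, CDH5 at chr6:27108560-27142145, TIE1 at chr6:167919662-167947253, ESAM at chr9:51983019-51992415, KDR at chr8:41809116-41856379, EMCN at chr8:120174091-120227971, FLT1 at chr11:5620698-5797095, TEK at chr1:195938177-196052294 and ENG at chr1:268309379-268343861. PECAM1, TEK and ENG each overlap 1 annotated gene on the opposite strand (a long non-coding RNA, an uncharacterised protein-coding gene and FPGS), and because the strand setting of the counting is not stated, reads from such overlaps may be shared.

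The 200 bases before the annotated start of ENG and KDR are shown because these receptors had the lowest median agreement with the other markers and did not go together across the pigs (r = -0.05). ETS factors are the transcription factors best known for endothelial genes. Capitals mark a form of the sites they bind, AGGAA on the strand shown, or TTCCT where AGGAA lies on the other strand. Other forms of ETS sites were not marked. The sequences are from the RefSeq genome of Sscrofa11.1, 5' to 3' on the strand of the gene: ENG at chr1:268343862-268344061 and KDR at chr8:41856380-41856579, both on the minus strand.
ENG: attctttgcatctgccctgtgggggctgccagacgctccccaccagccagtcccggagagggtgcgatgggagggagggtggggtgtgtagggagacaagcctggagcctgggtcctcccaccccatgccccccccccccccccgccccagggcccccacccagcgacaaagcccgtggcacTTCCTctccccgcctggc
KDR: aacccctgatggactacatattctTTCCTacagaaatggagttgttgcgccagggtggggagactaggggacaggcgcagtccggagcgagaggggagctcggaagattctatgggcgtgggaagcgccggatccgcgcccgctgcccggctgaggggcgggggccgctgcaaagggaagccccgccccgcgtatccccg
ENG and KDR each held AGGAA at 1 place, and 46.3% of the 19531 promoters of the same length held it. The GC box GGGCGG occurred in ENG at 1 place and in KDR at 2, and in 43.8% of all promoters. Each set of letters was searched on both strands.

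Levels between genes were compared as CPM per kilobase of the median RefSeq transcript. PECAM1 stood highest, with 17.4 ± 2.80 CPM per kb (SD, n = 12), and its lowest pig, at 12.5, was above the highest pig of every other gene. CDH5 came next with 7.06 ± 1.95 and was above ENG, at 4.53 ± 1.14, in 12 of 12 pigs. ENG, TEK (4.05 ± 1.10), ESAM (3.91 ± 0.968) and EMCN (3.77 ± 0.909) formed a close group, in which each gene was above the next in only 6 to 8 of the 12 pigs. KDR (2.38 ± 0.557) and FLT1 (2.36 ± 0.801), the VEGF receptors, were level with each other, with KDR above FLT1 in 6 of 12 pigs. TIE1 was lowest at 1.61 ± 0.338, below FLT1 in 11 of 12 pigs. Over the union of annotated exons in place of the median transcript, TIE1 stayed last (0.599), while TEK (2.84) went below EMCN (3.77) and ENG (3.83) below ESAM (3.91). By that measure the mean of FLT1 (1.96) was below that of KDR (2.37).

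None of the 9 genes passed the test between low and high IMF, which asked for an adjusted p of at most 0.05 and a log2 fold change (log2FC, low over high) of at least 0.58 in size. Nor did any other gene: percent called was 0 of the 14262 genes tested by the quasi-likelihood method of edgeR, with p-values adjusted as Benjamini and Hochberg describe, while 10.4% (1486 genes) had an unadjusted p at or under 0.05. DESeq2's Wald test on all genes with a count called 64 genes, no endothelial marker among them. These were 0.458% of the 13967 genes to which it gave an adjusted p. At an unadjusted p of 0.05 or under were 2 of the 9 markers, CDH5 and FLT1, both higher in low IMF (5.38% of all genes were so), and 7 of 9 genes had a log2FC above 0, where 48.4% of all genes did. The median log2FC was 0.18 over the 9 genes and -0.0083 over all genes tested, and over the 9 genes it was 0.37 in the 6 pigs with fitting Y counts. In no marker were the groups apart without overlap, which held for 94 genes (0.659%) of those tested.

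**Figure D1:**
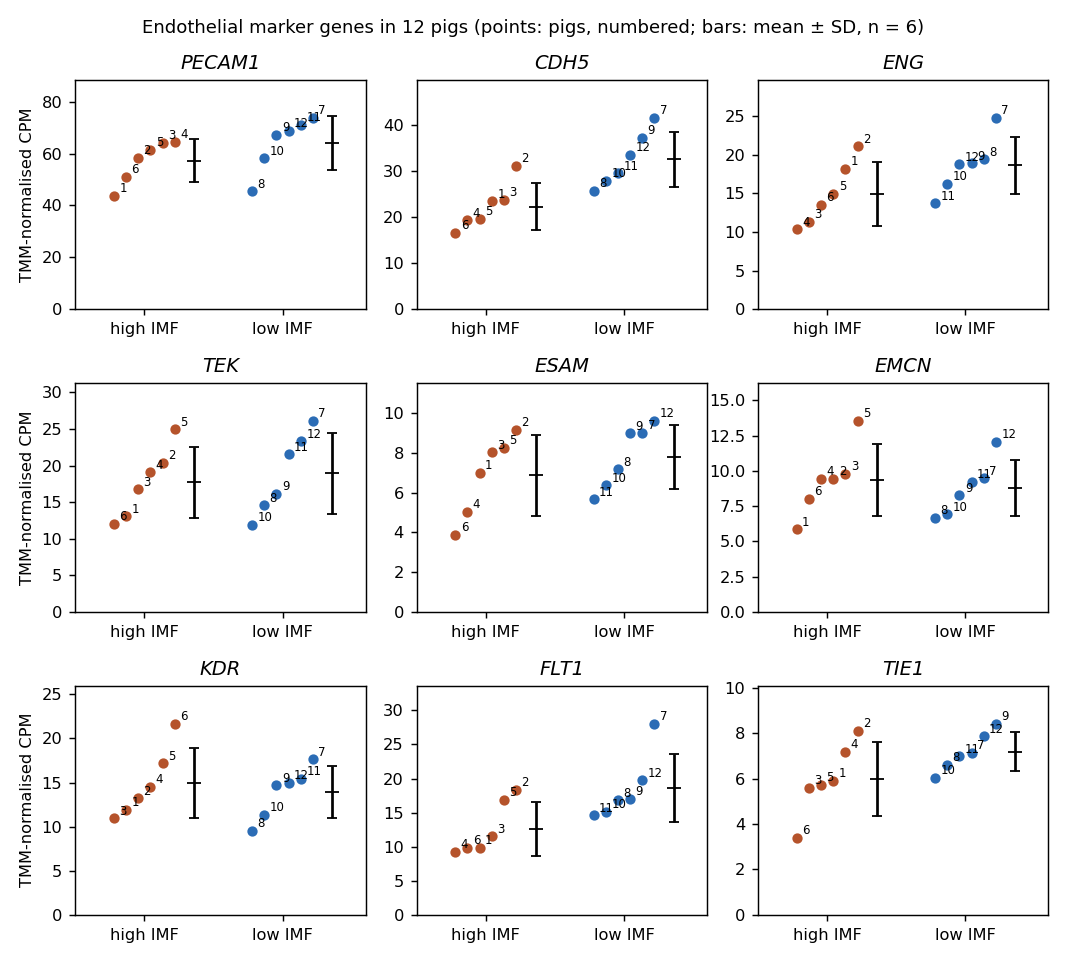
TMM-normalised CPM (y axes, from 0) of the 9 endothelial marker genes in the high and low IMF pigs, each point a pig with its number, bars giving mean ± SD (n = 6). All 9 genes overlap between groups, and for CDH5 only pig 2 of the high IMF group reaches into the low IMF range.

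Of the adhesion genes, CDH5 differed the most. Its level ran from 16.5 over a median of 21.5 to 31.1 CPM in the high IMF pigs, and from 25.7 over 31.5 to 41.5 CPM in the low IMF pigs. Pig 2 alone among the high IMF pigs was above the lowest low IMF pig, and the other 5 lay below all low IMF pigs. The means were 22.3 ± 5.10 and 32.5 ± 6.00 CPM (SD, n = 6 each), a 1.46-fold difference (log2FC 0.55, SE 0.159, 95% interval 0.21 to 0.89, edgeR adjusted p = 0.383). The unadjusted p of CDH5 was 0.00411 by edgeR and 0.0130 by an exact two-sided permutation test over all arrangements of the pigs. The exact p lay between 0.00433 and 0.0238 with any 1 pig left out. In the 6 pigs whose Y counts fit their label (4 high, 2 low) the log2FC was 0.49 (edgeR adjusted p = 0.998).

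PECAM1 ran from 43.6 over 60.0 to 64.6 CPM in high and from 45.5 over 68.1 to 73.7 CPM in low IMF. The groups overlapped broadly, pigs 1 and 8 being the lowest of each, although 4 low IMF pigs were above every high IMF pig (log2FC 0.16, SE 0.133, edgeR adjusted p = 0.695). The PECAM1 log2FC was 0.093 without pig 1, 0.26 without pig 8 and 0.37 in the 6 pigs with fitting Y counts. ESAM ran from 3.89 over 7.51 to 9.15 CPM in high and from 5.66 over 8.08 to 9.61 CPM in low IMF, and its groups lay over each other (log2FC 0.18, SE 0.207, adjusted p = 0.799). The ESAM log2FC ranged from 0.058 without pig 6 to 0.28 without pig 2, and was 0.29 in the pigs with fitting Y counts.

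Of the VEGF receptors, FLT1 ran from 9.27 over 10.7 to 18.4 CPM in high and from 14.6 over 16.9 to 28.0 CPM in low IMF. Pigs 2 and 5 of the high IMF group reached into the low IMF range, and pig 7 was far above all others in TMM-normalised CPM. Pig 7 had the lowest TMM scaling factor (0.810), and held 3041 FLT1 counts of 133915596, against 3369 of 151971914 in pig 12. The 1.47-fold difference in FLT1 (log2FC 0.56, SE 0.210, 95% interval 0.10 to 1.01, edgeR p = 0.0194, adjusted p = 0.434) had an exact permutation p of 0.0346, which became 0.0628 without pig 7, 0.0714 without pig 1, 4 or 6 and 0.0693 without pig 3. In the 6 pigs with fitting Y counts the FLT1 log2FC was 0.55. KDR, the other receptor of the pair, ran from 10.9 over 13.9 to 21.7 CPM in high and from 9.52 over 14.8 to 17.6 CPM in low IMF. KDR had its highest level in pig 6 and showed no direction between groups (log2FC -0.10, SE 0.184, 95% interval -0.49 to 0.30, adjusted p = 0.894), its sign turning without pig 6 (0.040) or pig 8 (0.0036). It was -0.0019 in the pigs with fitting Y counts. The log2 ratio of FLT1 to KDR was -0.26 ± 0.57 in high and 0.40 ± 0.32 in low IMF (SD, n = 6 each), from -1.14 in pig 6 to 0.82 in pig 8. This ratio is given without a test.

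The angiopoietin receptors TEK and TIE1 differed less. TEK ran from 12.1 over 17.9 to 25.0 CPM in high and from 11.9 over 18.8 to 26.1 CPM in low IMF, nearly the same span (log2FC 0.10, SE 0.216, adjusted p = 0.910), and its sign turned without pig 7 (-0.012). In the 6 pigs with fitting Y counts the TEK log2FC was 0.48 (edgeR adjusted p = 0.998). TIE1 ran from 3.39 over 5.81 to 8.11 CPM in high and from 6.04 over 7.06 to 8.42 CPM in low IMF. Pigs 2 and 4 of the high IMF group lay within the low IMF range of TIE1 and the other 4 below it (log2FC 0.26, SE 0.174, edgeR adjusted p = 0.620). The TIE1 log2FC was 0.14 without pig 6, 0.37 without pig 2 and 0.28 in the pigs with fitting Y counts.

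ENG, the co-receptor, ran from 10.3 over 14.2 to 21.1 CPM in high and from 13.7 over 18.8 to 24.8 CPM in low IMF. Its groups overlapped through pigs 1, 2 and 5 (log2FC 0.32, SE 0.184, adjusted p = 0.558), and in the 6 pigs with fitting Y counts the log2FC was 0.049. EMCN, the surface mucin, ran from 5.85 over 9.43 to 13.5 CPM in high and from 6.66 over 8.74 to 12.1 CPM in low IMF, with pig 5 at the top of it. The EMCN log2FC of -0.09 (SE 0.191, adjusted p = 0.901) became 0.043 without pig 5 and 0.39 in the pigs with fitting Y counts, so no direction can be given.

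**Figure D2:**
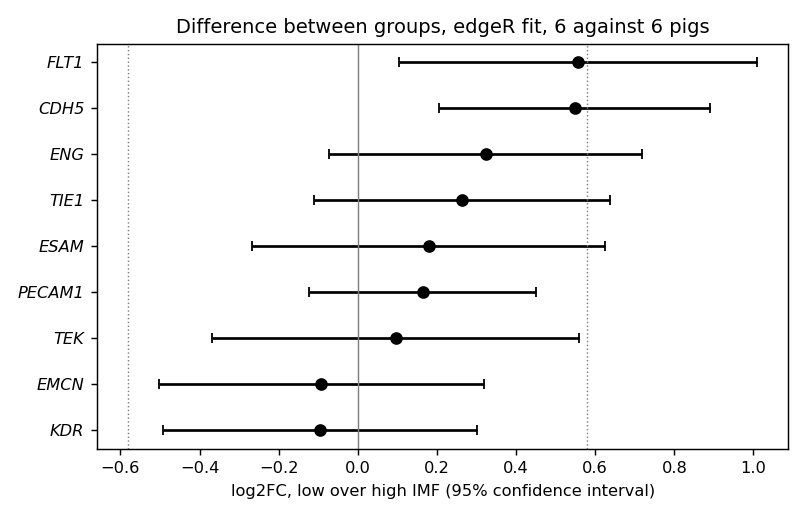
Log2FC (x axis, low over high IMF) of the 9 genes with 95% confidence intervals from the edgeR fit of 6 against 6 pigs; dotted lines mark 0.58 on either side of 0. The intervals of CDH5 (0.21 to 0.89) and FLT1 (0.10 to 1.01) lie above 0 and those of the other 7 genes cross it.

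The markers tended to move together from pig to pig. Over the 36 pairs of genes, the median Pearson r of log2 CPM across the 12 pigs was 0.46, with 30 pairs above 0 and 15 at 0.5 or more, while the median over all 101695191 pairs of tested genes was -0.0014. With the group means removed the median over the 36 pairs was 0.42. It was 0.32 within the high IMF pigs and 0.62 within the low IMF pigs, a difference that was not tested. All values of a pig come from 1 library, and its scaling is shared by its genes. By library size alone, the median over the 36 pairs was 0.47 and that over all pairs of genes 0.14.

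Permutation tests with 100000 resamples, adjusted over the 36 pairs, put 9 pairs at 0.05 or under by r and 6 by Spearman's rho. The tightest was TEK with EMCN (r = 0.81, rho = 0.82, permutation p = 0.0013 and 0.0019, adjusted p = 0.0294 and 0.0171), which kept r = 0.84 without pigs 6 and 10, the pair of pigs farthest from the median of TEK. CDH5 with FLT1 (r = 0.80, rho = 0.84, permutation p = 0.0019 and 0.0011, adjusted p = 0.0294 and 0.0171) had r = 0.64 without pigs 6 and 7. FLT1 with ENG (r = 0.78, rho = 0.83, permutation p = 0.0033 and 0.0016, adjusted p = 0.0294 and 0.0171) had r = 0.56 without pigs 4 and 7. The remaining pairs that passed by r were CDH5 with TIE1, ENG and ESAM (r = 0.75, 0.72 and 0.71), FLT1 with ESAM (0.72) and PECAM1 with TEK (0.71) and EMCN (0.69). PECAM1 with EMCN rested on pigs 1 and 8, the lowest of PECAM1, since r was 0.32 without them.

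All 9 pairs lay within 2 sets of genes, CDH5, FLT1, ENG, ESAM and TIE1 in the one and PECAM1, TEK and EMCN in the other. No pair between the sets passed, and r there ran from -0.16 for ENG with EMCN to 0.61 for FLT1 with TEK. Within the first set 4 of its 10 pairs did not pass either, down to r = 0.41 for TIE1 with ENG, so the sets are not sharply apart. ENG had r = -0.06 with PECAM1, and CDH5 had r = 0.04 with EMCN but 0.50 with PECAM1. The r values above pool both IMF groups. With the group means removed, r fell to 0.64 for CDH5 with FLT1 and 0.70 for FLT1 with ENG. It fell to 0.68 for CDH5 with TIE1 and 0.62 for CDH5 with ENG. It was 0.73 and 0.77 for ESAM with FLT1 and CDH5, and 0.72 to 0.84 within the second set. FLT1 with TEK, a pair between the sets, rose to 0.69, above CDH5 with FLT1. How far a shared group difference shaped the sets was not tested. The sets were read from the same pairs and are a description.

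**Figure D3:**
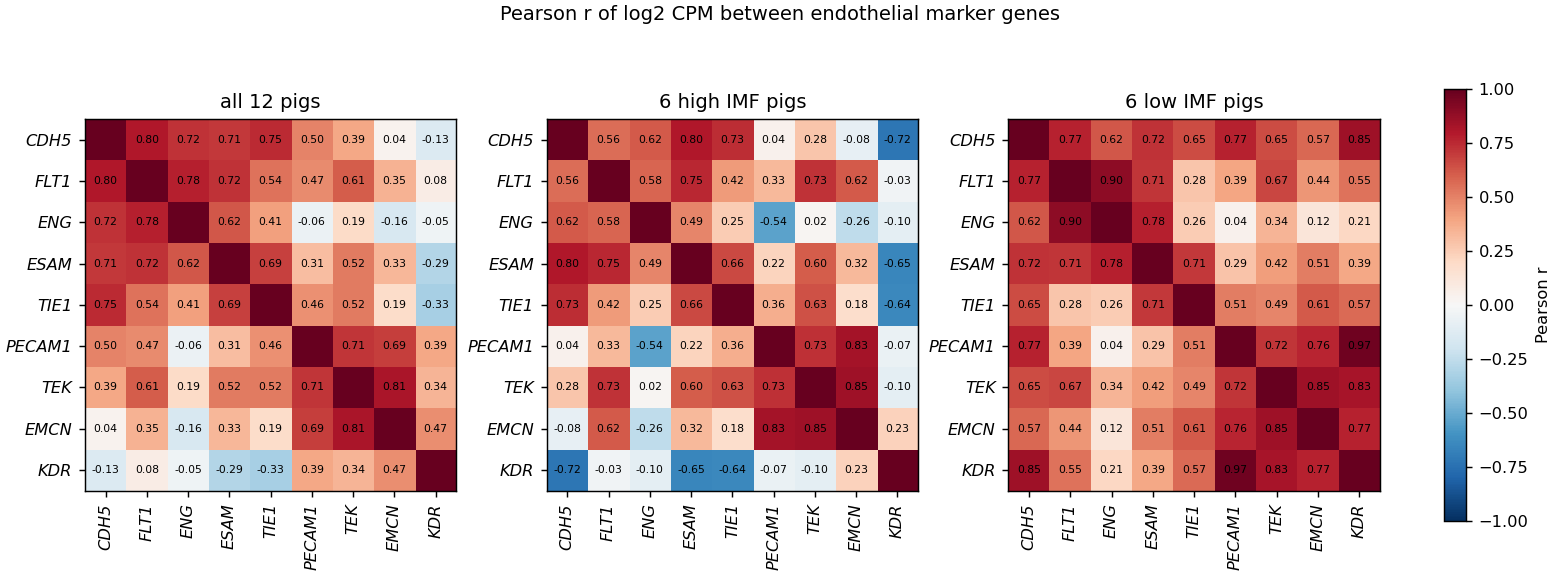
Pearson r of log2 CPM between each 2 of the 9 genes (colour, from -1 in blue to 1 in red, with r printed in each cell), over all 12 pigs and within the 6 high and the 6 low IMF pigs. KDR, in the last row, is blue or pale against most genes in the high IMF pigs and red in the low IMF pigs, where its r with PECAM1 is 0.97.

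KDR had the weakest agreement with the others. Its median r with the other 8 genes was 0.02, the lowest of the 9, against 0.30 for ENG, the next lowest, and 0.60 for CDH5, the highest. In the low IMF pigs KDR had an r above 0 with all 8 genes and of 0.5 or more with 6, with a median of 0.67. In the high IMF pigs it was below 0 with 7 of the 8, with a median of -0.10. KDR with PECAM1 had r = 0.97 in low (rho = 1) and -0.07 in high IMF (rho = -0.09). KDR with CDH5 had r = 0.85 in low (rho = 0.77) and -0.72 in high IMF (rho = -0.77). These within-group values are a description. Exact permutation tests were run, but no p is given, since KDR was singled out for this pattern and each group holds 6 pigs.

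Pig 6 of the high IMF group had the highest KDR (21.7 CPM) and the lowest CDH5, ESAM and TIE1 of all 12 pigs. Without pig 6, KDR had an r above 0 with all 8 genes over the other 11 pigs, with a median of 0.38 and values of 0.82 with TEK and 0.72 with PECAM1. The split by group and the leaving out of pig 6 were chosen after the values were seen, and the difference between the groups was not tested.

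**Figure D4:**
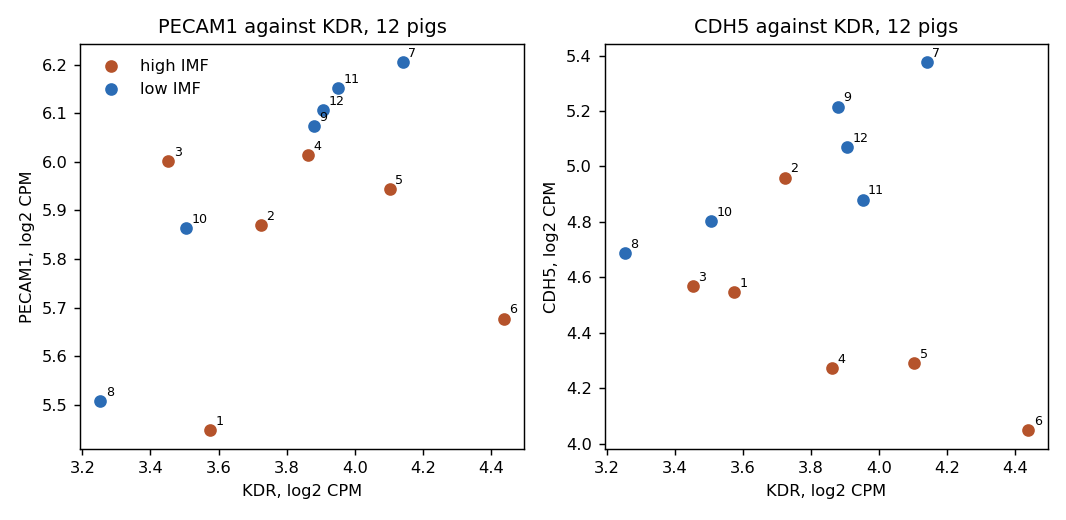
Log2 CPM of PECAM1 and of CDH5 (y axes) against KDR (x axes), each point a pig with its number. The low IMF pigs rise along a line in both panels (r = 0.97 and 0.85), and pig 6 lies at the right with the highest KDR and the lowest CDH5.

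Summed over the 9 genes, the level per pig ran from 139 CPM in pig 1 to 237 CPM in pig 7, with 162 ± 21.0 in high and 190 ± 31.6 in low IMF (SD, n = 6 each). The mean of the 9 genes' log2 CPM, each centred over the pigs, was highest in pigs 7 (0.44), 12 (0.31) and 2 (0.20) and lowest in pigs 6 (-0.40) and 1 (-0.28). Of the 6 pigs with the highest mean, 4 were low IMF, and the groups overlapped, the high IMF pigs reaching from -0.40 to 0.20 and the low IMF pigs from -0.16 to 0.44. Pig 7 also had the lowest TMM scaling factor (0.810, up to 1.12 in the others), and by library size alone its mean was 0.14. That of pig 12 was then 0.48, above pig 7. The summed muscle fibre level of pig 7, 62558 CPM, was the highest of the 12. Pig 6 was the highest of all pigs in the summed level of 4 tested red cell genes (633 CPM against 41.3 to 122 in the others), of 9 immediate early genes (1940 CPM) and of 9 macrophage and leukocyte genes (142 CPM), and the lowest in mural cell genes (334 CPM). Their part in the endothelial levels was not tested.

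The markers were followed by other genes of the endothelium. Of 28 further endothelial symbols, 22 had an identifier, EGFL7 and APLNR had no counts, and 20 were tested. Their median r with the mean of the 9 markers was 0.78, against -0.02 over all genes, with 18 of 20 above 0 and 14 of 20 at 0.5 or more, where 8.77% of all genes were. Their own mean had r = 0.93 and rho = 0.92 with that of the markers, and r = 0.94 without pigs 6 and 7. CD34, a surface sialomucin (r = 0.88), ARHGEF15 (0.87) and MMRN2, an endothelial matrix protein (0.85), followed the markers, while ECSCR (-0.78) and ROBO4 (-0.40), both endothelial surface proteins, went the other way. None of the 20 had an unadjusted p at or under 0.05 between the groups, where 10.4% of all genes did. Their median log2FC was 0.15, with 14 of 20 above 0 (48.4% of all genes were).

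Mural cells, the pericytes and smooth muscle cells around vessels, share the vessel wall with the endothelium. The mean of 11 mural genes had r = 0.69 (rho = 0.80) with that of the markers, with PDGFRB at 0.16, RGS5 at 0.58 and NOTCH3 at 0.83. The median r over the 11 genes was 0.46, with 5 at 0.5 or more. The mean of 8 adipocyte genes had r = 0.06 (rho = -0.01) over all pigs, 0.11 in the high and 0.02 in the low IMF pigs. The mean of 9 macrophage and leukocyte genes had r = -0.09 over all pigs, -0.38 in the high and 0.81 in the low IMF pigs, and 7 fibro-adipogenic genes had -0.11, -0.64 and 0.91. The mean of 6 lymphatic genes had r = -0.33 over all pigs, -0.69 in the high and 0.16 in the low IMF pigs. These differences between groups of 6 pigs were not tested. For 9 immediate early genes the mean had r = -0.60 (rho = -0.52). FOS had -0.86 and FOSB -0.37, the median over the 9 genes was -0.38, and 1 of them was above 0. Muscle fibre genes had r = 0.39, which was -0.27 without pigs 6 and 7. Of the platelet symbols GP9 alone was tested, at 0.0551 to 0.173 CPM, GP1BB and GP6 had no counts, and ITGA2B, GP1BA and PF4 had no identifier, so platelet RNA was hardly assessed.

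**Figure D5:**
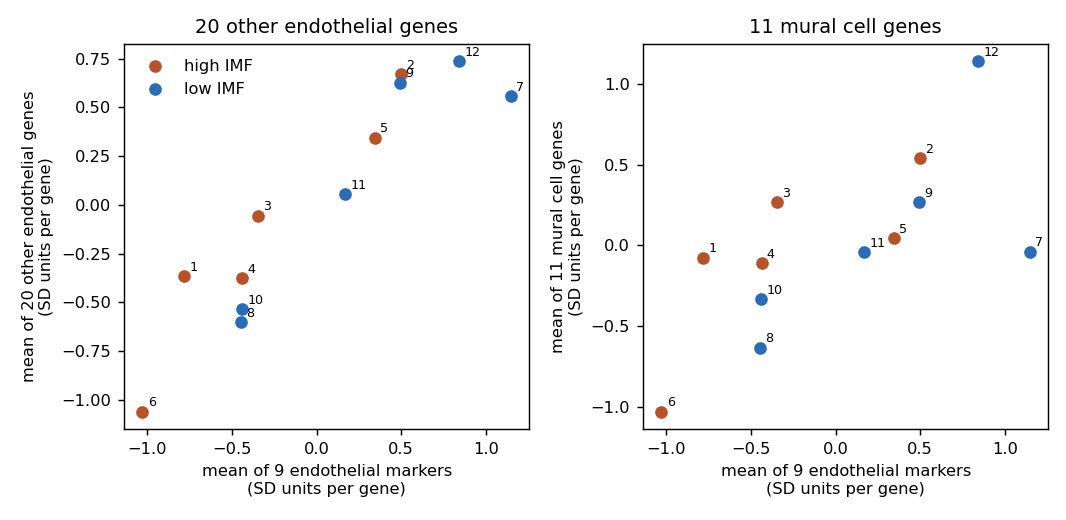
Mean of 20 other endothelial genes and of 11 mural cell genes (y axes) against the mean of the 9 endothelial markers (x axes), each gene scaled to SD units over the 12 pigs and each point a numbered pig. The endothelial means lie close to a line (r = 0.93), from pig 6 at the lower left to pigs 7 and 12 at the upper right, and the mural means have r = 0.69.

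Of the 14262 genes tested, those most like the mean of the 9 markers over the 12 pigs were C3orf70 (r = 0.96), ADGRF5, an adhesion G protein-coupled receptor (0.93), RHCG, an ammonium transporter (0.93), and ST6GALNAC2, a sialyltransferase (0.92). They were followed by ENSSSCG00000025021 and ENSSSCG00000038192, which have no symbol, by ATP2A3, a calcium pump (each at 0.91 or 0.92), and by CORO2B (0.91), RNF20 (0.90) and TAX1BP3 (0.90). All 10 had a log2FC above 0 (48.4% of all genes did), from 0.20 for RNF20 to 0.85 for RHCG. They were picked for following a mean that was itself higher in low IMF, so this direction largely follows from the choice. None passed the edgeR test (smallest adjusted p = 0.427).

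Genes of the pathways in which the receptors act had no call either. Of 17 tested genes of VEGF and angiopoietin signalling, 4 had an unadjusted p at or under 0.05 with a higher level in low IMF and 3 with a higher level in high IMF, beside the 10.4% of all genes at that p in either direction. NRP1, a VEGF co-receptor, ran from 15.2 over 18.8 to 24.5 CPM in high and from 21.8 over 29.2 to 46.3 CPM in low IMF (log2FC 0.71, SE 0.196, edgeR adjusted p = 0.367). VEGFC, a ligand of the lymphatic VEGF receptor, ran from 1.73 over 2.28 to 3.01 CPM in high and from 1.15 over 1.66 to 1.80 CPM in low IMF (log2FC -0.58, adjusted p = 0.419). VEGFA, the main ligand of KDR and FLT1, had 51.9 ± 19.6 and 56.4 ± 23.8 CPM (SD, n = 6 each, log2FC 0.12, adjusted p = 0.915) and an r of 0.04 with the marker mean.

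Of 13 tested partners of the endothelial junction, the alpha-catenin CTNNA1 (log2FC 0.21, adjusted p = 0.435) and afadin AFDN (0.42, adjusted p = 0.441) had an unadjusted p at or under 0.05, both higher in low IMF, and 10 of 13 had a log2FC above 0, beside 5.38% and 48.4% of all genes. The beta-catenin CTNNB1, which binds the tail of CDH5, had 155 ± 14.5 and 148 ± 8.82 CPM (SD, n = 6 each, log2FC -0.07, edgeR adjusted p = 0.817). Of 18 tested genes of endoglin and BMP signalling, ID3, a target of the pathway, alone was under 0.05 unadjusted, higher in high IMF (log2FC -0.36, adjusted p = 0.441). ACVRL1, the type I receptor paired with ENG, had a log2FC of 0.12. Of 12 tested Notch genes, the ligand DLL1 alone was under 0.05 unadjusted (log2FC -0.58, adjusted p = 0.427). Both counts stand beside the 10.4% of all genes at that p in either direction.

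Tested were 13 genes of coagulation and of leukocyte adhesion at the endothelium. At an unadjusted p of 0.05 or under, 2 were higher in high IMF and 1 in low IMF. Of all genes, 10.4% were at that p in either direction. The median r of the 13 with the marker mean was -0.27. SELP (P-selectin) ran from 2.06 over 5.16 to 8.32 CPM in high and from 1.54 over 2.48 to 3.61 CPM in low IMF (log2FC -1.10, SE 0.313, edgeR adjusted p = 0.367). SELP had an r of -0.58 with the mean of the markers. F8, coagulation factor VIII, was the gene higher in low IMF (log2FC 0.37, adjusted p = 0.452).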

How the data were processed

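RNA-seq of Semimembranosus muscle covered 12 pigs, 6 per group by the labels, each a separate animal. The authors trimmed reads of stranded libraries with Trimmomatic, aligned them with HISAT2 to Sscrofa11.1, assembled known transcripts with StringTie and deposited raw gene counts made with HTSeq 0.6.1. The annotation release, the strand option and the handling of multiply aligned reads were not given in the sources used here. Of the genes listed, 5539 had no count and 14857 had a symbol.

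Genes kept by filterByExpr were normalised by TMM and tested with edgeR 4.0.16 (quasi-likelihood, group only, R 4.3.3; biological coefficient of variation 0.332), with Benjamini-Hochberg adjustment over 14262 genes. The script was tested on simulated data. Log2 CPM used a prior count of 2. Alternatives used DESeq2 1.42.0, limma-voom 3.58.1, other scalings and filters, labelled sex or age as a covariate, and leaving out single pigs. The markers, gene lists and tests were chosen with earlier results of these data known. Named are all markers, up to 3 genes of smallest p and the first 2 symbols of each other list, and the 10 genes nearest the marker mean. Transcript lengths and promoters came from RefSeq, matched by symbol. No 2 pigs of a group agreed within sampling noise (smallest chi-square per degree of freedom 191). Some items are not reported here.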

Additional observations from a re-analysis of the deposited data

How the results depend on the processing

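The count of genes differing between the groups was 0 by edgeR and 57 (same genes) or 64 (all genes with a count) by DESeq2's Wald test, and 0 to 1 with a pig left out. None of the 9 markers was called under any of the alternatives run. Their median log2FC ranged from 0.13 to 0.28 with a pig left out and was 0.37 in the 6 pigs with fitting Y counts, and their median pairwise r from 0.39 to 0.50 with a pig left out (0.32 within the high and 0.62 within the low IMF pigs). With a pig left out, the log2FC ranged from -0.17 to 0.040 for KDR, -0.012 to 0.22 for TEK and -0.20 to 0.043 for EMCN, turning sign for KDR without pig 6 or pig 8 (0.0036), for TEK without pig 7 and for EMCN without pig 5. It was 0.39 for EMCN in the 6 pigs with fitting Y counts. The difference in mean log2 CPM used by the exact test ranged from -0.17 to 0.029 for KDR, -0.017 to 0.21 for TEK and -0.20 to 0.038 for EMCN, turning without the same pigs and, for TEK, also without pig 6. The cause was not tested. That test passed 0.05 for TIE1 (p = 0.0281) and ENG (p = 0.0368) without pig 2, and FLT1 lost it without pig 1, 3, 4, 6 or 7 (exact p of 0.0628 to 0.0714). The number of markers with an unadjusted edgeR p at or under 0.05 was 2 over all pigs. It was 4 without pig 2, 3 without pig 8, 1 without pig 7 and 0 in the 6 pigs with fitting Y counts. Fewer pigs were tested there. Of all genes tested, 1486 of 14262 were at that p over all pigs and 2060 of 14364 without pig 2. The count was 1190 of 14397 without pig 8, 1283 of 14456 without pig 7 and 607 of 14972 in the 6 pigs. The mean of pig 7 went from 0.44 to 0.14 by library size alone, and that of pig 12 from 0.31 to 0.48. The median r of KDR with the other 8 markers, 0.02, was -0.10 in the high IMF pigs, 0.67 in the low IMF pigs and 0.38 without pig 6. No paired analysis was possible because the pigs of the groups share no number in the labels.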
